A study of Homo sapiens with 3 samples.

Results

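The genes of iron uptake, reduction, storage, export and sensing, of haem synthesis and breakdown and of iron-sulphur cluster assembly were examined in the human melanoma line SK-Mel-28, stably transfected with a hairpin construct that targets melanotransferrin. The members were 37 genes fixed by name, with the transferrin family left out, and every probe set whose platform annotation names 1 of them alone was taken. The annotation used here names 35 of the 37 in this way, through 97 of 54613 non-control probe sets. The ferritin heavy chain gene FTH1 and the iron regulatory protein gene IREB2 were named alone by no probe set in it and were not analysed here. Probe sets that name several genes were not searched for members. Of the 97 probe sets, 72 lay above the median of all probe sets in mean log2 signal and were tested, representing 30 genes, and 25 were too dim.

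The scrambled group was 1 array of SK-Mel-28 cells carrying the pSilencer 3.1-H1 neo vector in its scrambled control form. The siRNA group was 2 arrays, labelled B1 and B2 and called siRNA arrays 1 and 2 here, of cells carrying the same vector with the siRNA hairpin targeting melanotransferrin (labelled MTf; current symbol MELTF). The labels and the design text give different positions for its target in the transcript, and nothing says whether B1 and B2 are clones, pools or repeat preparations. P-values therefore rest on the difference between siRNA arrays 1 and 2, moderated over all probe sets, part or all of which could be technical. No spread among scrambled arrays was measured, and the lone scrambled array is assumed to vary like the siRNA arrays. Signals are probe set intensities as deposited, scaled to a common mean per array, and differences are of log2(signal + 47.4), siRNA minus scrambled, from limma with Benjamini-Hochberg adjustment over all 27306 probe sets kept. In bulk RNA, fewer cells of a type and less RNA per cell cannot be told apart.

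Melanotransferrin is a cell-surface relative of transferrin that binds iron and is abundant in melanoma cells. Ferric iron is reduced and carried into the cytosol, handed on by chaperones of the PCBP family, stored in ferritin, exported by ferroportin, or taken into mitochondria for haem and iron-sulphur clusters. When iron is scarce, the iron regulatory proteins bind stem-loops called iron-responsive elements in certain transcripts: at the 5' end, as in ferritin, they block translation, and at the 3' end, as in the transferrin receptor, they protect the transcript. Regulation through a 5' element therefore need not show in a transcript's level, which is all that was measured here.

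The promoters are shown for the 5 members with the smallest p-values, with each gene read from the probe set of highest mean and only genes with a window taken, so that their upstream letters can be set side by side. The RefSeq table held 41 windows for 30 member genes. Each stretch is the 250 bases before the furthest upstream start listed. Capitals mark matches, on either strand, to any of 7 motifs. The E-box is CACGTG, and a variant of it bound by MITF, the melanocyte transcription factor, is CATGTG. The core of hypoxia response elements is ACGTG, which the E-box contains. The core of antioxidant response elements is TGACNNNGC. The GC box is GGGCGG, the box named after its own letters is CCAAT, and the letters searched for the TATA box were TATAAA.
CYBRD1 (GRCh38.p14 chr2:171521983-171522232, plus strand): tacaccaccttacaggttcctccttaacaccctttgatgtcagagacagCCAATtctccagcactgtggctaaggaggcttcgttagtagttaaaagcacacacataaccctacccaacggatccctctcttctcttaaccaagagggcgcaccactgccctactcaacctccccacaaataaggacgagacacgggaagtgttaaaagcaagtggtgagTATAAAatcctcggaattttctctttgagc
PCBP2 (GRCh38.p14 chr12:53451852-53452101, plus strand): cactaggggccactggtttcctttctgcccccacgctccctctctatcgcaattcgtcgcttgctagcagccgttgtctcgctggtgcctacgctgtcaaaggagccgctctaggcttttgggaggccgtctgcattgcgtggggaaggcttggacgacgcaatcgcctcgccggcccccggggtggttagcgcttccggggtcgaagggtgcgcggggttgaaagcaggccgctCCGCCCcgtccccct
STEAP3 (GRCh38.p14 chr2:119223584-119223833, plus strand): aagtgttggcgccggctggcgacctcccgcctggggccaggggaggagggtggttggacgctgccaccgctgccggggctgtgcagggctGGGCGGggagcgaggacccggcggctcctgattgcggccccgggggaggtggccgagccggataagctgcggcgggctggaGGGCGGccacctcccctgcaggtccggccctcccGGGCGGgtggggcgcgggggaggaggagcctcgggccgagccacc
FECH (GRCh38.p14 chr18:57586703-57586952, minus strand): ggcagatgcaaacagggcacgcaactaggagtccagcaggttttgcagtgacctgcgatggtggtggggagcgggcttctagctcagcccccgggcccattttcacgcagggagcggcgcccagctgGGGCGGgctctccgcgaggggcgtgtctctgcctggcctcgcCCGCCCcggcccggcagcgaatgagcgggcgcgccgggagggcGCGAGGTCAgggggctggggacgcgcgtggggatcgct
UROD (GRCh38.p14 chr1:45012004-45012253, plus strand): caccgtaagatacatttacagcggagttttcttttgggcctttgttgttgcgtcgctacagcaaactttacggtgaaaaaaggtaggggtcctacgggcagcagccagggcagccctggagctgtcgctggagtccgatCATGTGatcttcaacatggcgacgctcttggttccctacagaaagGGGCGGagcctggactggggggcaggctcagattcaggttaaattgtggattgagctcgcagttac

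In these windows CYBRD1 held a CCAAT box and a TATAAA match, PCBP2 held 1 GC box and STEAP3 held 3. FECH held 2 GC boxes and 1 antioxidant core on the opposite strand, and UROD held 1 CATGTG and 1 GC box. No motif of the 7 was shared by all 5 printed windows. A second CYBRD1 window, not printed, did hold a GC box, as did the printed windows of PCBP2, STEAP3, FECH and UROD. Over the 41 windows a GC box was present in 68.3%, against 42.6% of all 35116 windows, and CCAAT in 46.3% against 32.0%. The antioxidant core was present in 9.76% against 10.9%, the E-box in 4.88% against 6.34%, CATGTG in 12.2% against 9.42%, the hypoxia core in 14.6% against 18.5% and TATAAA in 7.32% against 10.7%. These shares describe letters in a fixed window and do not show that a factor binds.

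The ferritin light chain gene FTL was shown as the example of a 5' iron-responsive element. The element's pattern, CNNNNNCAGTGN on the transcribed strand, was found within 50 bases after the start in 1.67% of all windows, and among the members' windows in that of FTL alone. Capitals mark the loop.
FTL (GRCh38.p14 chr19:48965329-48965358, plus strand): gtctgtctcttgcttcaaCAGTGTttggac

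MELTF, the targeted gene, was measured by 4 kept probe sets that did not share a direction, and none passed the test (limma). The brightest read 32608 in the scrambled sample, 18968 in siRNA array 1 and 18974 in siRNA array 2 (log2 difference -0.78 ± 0.17, SE; limma adjusted p = 0.0699). Another was also lower, at 915.2 against 699.7 and 283.6 (limma adjusted p = 0.326), and those at 8284 against 10567 and 11199 and at 546.4 against 693.7 and 665.7 were higher. Where each probe set lies relative to the hairpin's target was not analysed here, so these values check the labels only in part.

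SiRNA array 1 stood apart in the ribosomal RNA control probe sets, whose median signal was 3.76 times the scrambled one, against 1.06 times for siRNA array 2. GAPDH 3'/5' control ratios lay between 1.01 and 1.03, and those of ACTB were 2.00 (scrambled), 1.77 (siRNA 1) and 1.87 (siRNA 2). All 6 melanocyte markers with a probe set (MLANA, PMEL, TYR, SOX10, MITF and S100B) exceeded 97.2, the highest signal of the bacterial trp controls, on every array. Their summed signal was 236324, 237039 and 253261 (scrambled, siRNA 1, siRNA 2). Within that sum TYR was higher on both siRNA arrays (19988, 35193 and 37555) and MITF lower (52684, 42992 and 34223). The sums of 6 fibroblast markers were 1757, 5666 and 5883, with LUM at 598.6, 4850 and 4841, while the other 5 markers summed to 1158, 815.8 and 1042. The sums of 5 leukocyte and macrophage markers were 1450, 652.6 and 3509, with HLA-DRA at 1168, 499.1 and 3293 and PTPRC, CD14 and CD163 below 97.2 throughout. Erythroid (3 markers), endothelial (3) and epithelial or liver (5) sums ranged from 345.1 to 773.4. The part of these differences in the iron and haem values was not tested.

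No member probe set passed the test, as 0 of 72 were called higher and 0 lower by limma, against 1.19% called higher, 0.905% called lower and 2.09% called in either direction over all 27306 probe sets. With 2.09% called over all probe sets, 0 calls in a role of at most 15 kept probe sets says little about that role. The smallest adjusted p was 0.0526, for CYBRD1. At an unadjusted p under 0.05, limma gave 18 of the 72 higher and 0 lower, where all probe sets gave 12.4% higher and 7.77% lower. The absence of lower ones depended on the scaling and the filter. With arrays centred on their medians limma gave 12 higher and 3 lower (all: 7.91% and 12.5%). Quantile normalization gave 14 higher and 1 lower by limma (all: 9.72% and 8.51%). Without the filter on dim signals limma gave 17 of 97 higher and 1 lower (all: 7.37% and 5.97%). Over all probe sets the calls themselves split into 324 higher and 247 lower, and into 254 higher and 468 lower with centred arrays. Counted with 1 probe set per gene (that with the highest mean), 0 of 30 genes were called, against 2.64% of all 12386 genes. At an unadjusted p under 0.05, 8 of the 30 were higher and 0 lower at that level, against 14.0% and 8.92% of all genes. The 8 were CYBRD1, STEAP3, PCBP1, PCBP2, ABCB10, UROD, FECH and HMOX1.

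Both siRNA arrays read above the scrambled array for 51 of the 72 probe sets and below it for 7 (all probe sets: 46.4% and 30.9%). The filter used the mean of 3 arrays, 2 of them siRNA. A probe set dim on the scrambled array could thus pass through higher siRNA signals, among the members as among all probe sets. Without the filter 63 of 97 were above and 14 below (all probe sets: 42.3% and 29.9%). By gene, 22 of 30 were above, 4 below and 4 split (all genes: 46.7% above and 32.5% below). The median log2 difference of the 30 genes was 0.38, against 0.097 over all genes. The median of all kept probe sets was itself shifted by 0.11, and with the arrays centred on their medians the members' median was 0.21 against -0.067, with 18 genes above and 8 below (all genes: 34.5% above and 44.5% below). All these differences share the 1 scrambled array, so the agreement of siRNA arrays 1 and 2 is not independent evidence. Each siRNA array exceeded the scrambled one by 2-fold or more in 6 member probe sets, and 0 were lower to that extent (all probe sets: 3.93% and 1.83%): 2 of CYBRD1, 2 of PCBP2 and 1 each of STEAP3 and SLC11A2. With quantile normalization that count was 2 of 72 (all probe sets: 2.84%), a share near the background, and with centred arrays 3 of 72 (2.57%).

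**Figure D1:**
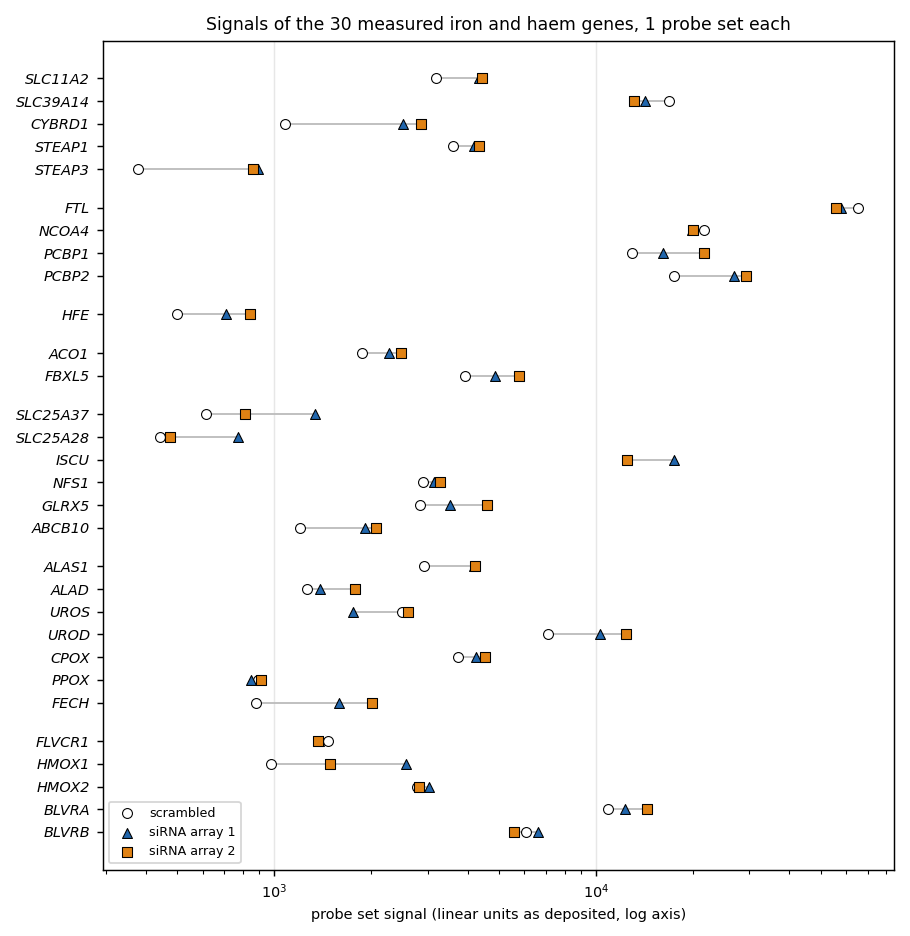
Signal of each measured member gene on the 3 arrays (1 probe set per gene, log axis, genes grouped by role), with a grey line spanning the arrays. For 22 of the 30 genes both siRNA arrays lie to the right of the scrambled array. The gaps of CYBRD1, STEAP3, PCBP2 and FECH exceed the distance between the siRNA arrays, as do those of SLC11A2, ALAS1, ABCB10 and UROD, among others. Distances between genes have no meaning, since probe sets differ in efficiency.

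**Figure D2:**
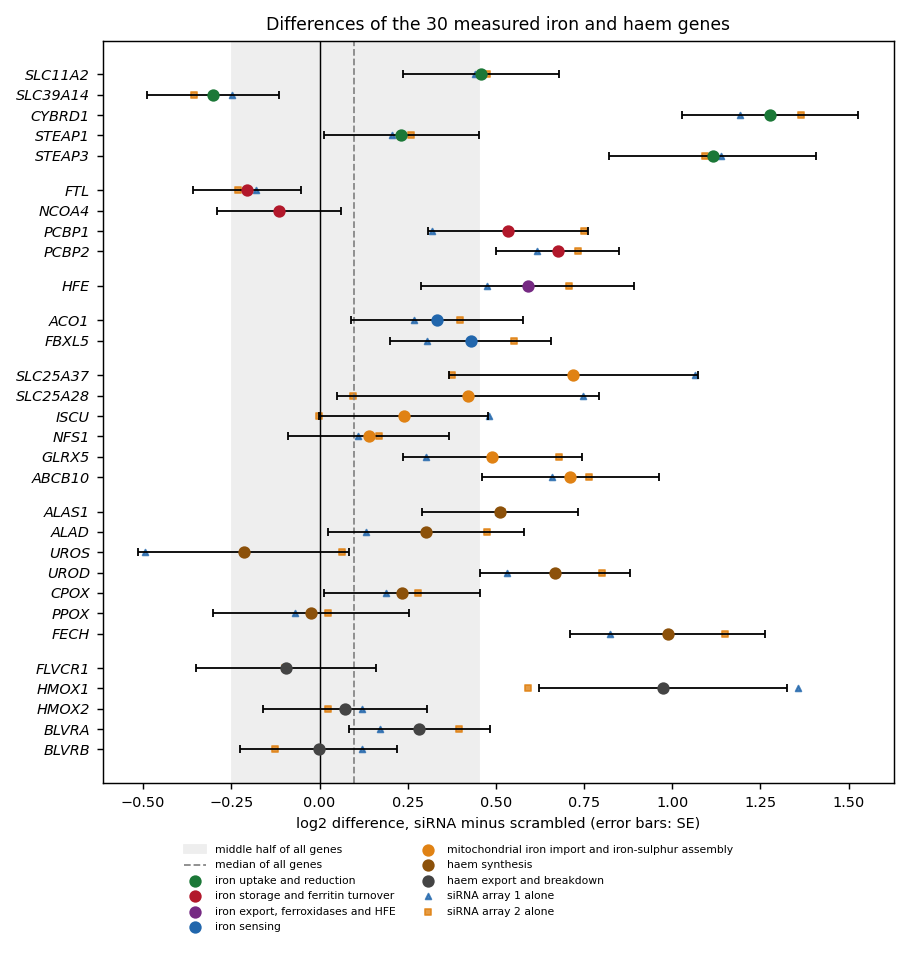
Log2 difference of the same probe sets, siRNA minus scrambled, with SE from limma (bars) and each siRNA array alone (triangles and squares); the shaded band holds the interquartile range of all genes and the dashed line marks their median, 0.097. CYBRD1, at 1.28, and STEAP3, at 1.12, lie farthest right and SLC39A14, at -0.30, farthest left.

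Iron uptake and reduction held CYBRD1 and STEAP3, the members with the largest differences in the probe set of highest mean. In this role 0 of 10 kept probe sets passed limma's test (all probe sets: 2.09%). CYBRD1 encodes duodenal cytochrome b, a ferric reductase of the plasma membrane. Its probe set with the highest mean read 1079 in the scrambled sample, 2525 in siRNA array 1 and 2855 in siRNA array 2. Both siRNA signals exceeded the scrambled one by more than they differed from each other (log2 difference 1.28 ± 0.25, SE, n = 1 against 2; limma adjusted p = 0.0526). A second CYBRD1 probe set read 422.4 against 1007 and 1621 (2.82-fold; limma adjusted p = 0.0764). CYBRD1 thus missed the threshold in both of its probe sets while lying above 2-fold on each siRNA array.

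The STEAP family includes metalloreductases that reduce iron and copper. STEAP3, the reductase of the transferrin cycle endosome, read 379.0 in the scrambled sample against 890.4 and 862.5. The siRNA arrays lay close together, and the log2 difference was 1.12 ± 0.29 (SE; limma adjusted p = 0.0979). Its dimmer probe set, not tested, read 94.0 against 169.8 and 241.6. STEAP1 read 3611 against 4173 and 4328, a log2 difference of 0.23 with a 95% interval from -0.28 to 0.75. STEAP2 read 69.1, 67.5 and 11.6, below 97.2 on every array.

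SLC11A2 encodes DMT1, the proton-coupled importer of ferrous iron. Its probe set with the highest mean read 3181 against 4332 and 4440 (log2 difference 0.46 ± 0.22, SE; limma adjusted p = 0.302), and another read 2208 against 4296 and 3630 (log2 difference 0.83; limma adjusted p = 0.119). All 4 kept SLC11A2 probe sets were higher on both siRNA arrays. The 1 counted as 2-fold (81.3 against 290.9 and 240.8) started below 97.2, and the size of its fold depends on the pseudocount. It passed the filter only through its siRNA signals, so its being counted as higher was favoured by the filter. SLC39A14, a zinc and non-transferrin iron importer, read 16857 against 14172 and 13170 (log2 difference -0.30, 95% interval -0.74 to 0.13; -0.47 with centred arrays and -0.18 with quantile normalization). A further SLC39A14 probe set differed by 0.033, with siRNA array 1 above and siRNA array 2 below the scrambled array. LCN2, a siderophore-binding lipocalin, read 46.0, 39.0 and 107.3 and was not tested.

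Storage genes and their chaperones went different ways, with 0 of 9 kept probe sets past limma's threshold (all probe sets: 2.09%). FTL read 65503 in the scrambled sample against 57853 and 55805. The log2 difference was -0.21 (95% interval -0.56 to 0.15; limma adjusted p = 0.504), and a second probe set gave -0.18 (48067 against 43875 and 41040). Both are of the kind (suffix _x_at) whose probes can also match related sequences, and ferritin has many processed pseudogenes. NCOA4, the receptor that delivers ferritin to lysosomes, read 21700 against 19978 and 20091 (log2 difference -0.11, 95% interval -0.52 to 0.29). For FTL and NCOA4 both siRNA arrays were below the scrambled array, and the intervals include 0. Their size depended on the scaling: FTL was at -0.37 with centred arrays (limma unadjusted p = 0.0406, adjusted p = 0.222) and -0.097 with quantile normalization, and NCOA4 at -0.28 and -0.0061.

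The poly(C)-binding proteins bind RNA and also load iron into ferritin. PCBP2 read 17561 against 26938 and 29236 in its probe set with the highest mean (log2 difference 0.67 ± 0.18, SE; limma adjusted p = 0.0953). Its other 4 kept probe sets had log2 differences from 0.70 to 1.52, and the largest belonged to a probe set that read 486.3 against 1165 and 1875 (limma adjusted p = 0.0726). All 5 kept PCBP2 probe sets were higher on both siRNA arrays, and a sixth, too dim to test, read 138.4 against 97.2 and 130.9. PCBP1, an intronless relative, read 12920 against 16132 and 21740.5 (log2 difference 0.53 ± 0.23, SE; limma adjusted p = 0.244). The siRNA arrays of PCBP1 lay farther from each other than siRNA array 1 lay from the scrambled array.

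The genes of iron export were dim in these cells. Ferroportin (SLC40A1), the known cellular iron exporter, read 155.2, 132.7 and 163.4 in 1 probe set and 100.5, 39.7 and 65.0 in the other. The ferroxidase ceruloplasmin (CP) had 4 probe sets with signals between 11.2 and 134.3, and hephaestin (HEPH) had 2 between 21.5 and 132.0. None of these 8 probe sets passed the filter on dim signals, so no difference was tested for SLC40A1, CP or HEPH.

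HFE, an MHC class I-like protein that binds the transferrin receptor and is mutated in hereditary haemochromatosis, was covered by 15 probe sets, of which 11 passed the filter. Its probe set with the highest mean read 498.2 against 710.2 and 843.7 (log2 difference 0.59 ± 0.30, SE; limma adjusted p = 0.330). Of the 11, 10 were higher on both siRNA arrays and 1 was split (290.5 against 162.0 and 389.8, log2 difference -0.16). Some of the dimmest, such as that at 138.4 against 251.2 and 245.3, passed the filter only through the siRNA arrays. Their being counted as higher was favoured by the filter. The highest of the 11 was a 2.01-fold difference (184.8 against 410.4 and 426.8), and none passed limma's threshold. The HFE probe sets, 11 of the 15 with suffix _x_at, measure the same transcripts of 1 gene and are not separate results.

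Among iron sensors, 0 of 4 kept probe sets passed limma's threshold (all probe sets: 2.09%). ACO1, the cytosolic aconitase that becomes iron regulatory protein 1 without its iron-sulphur cluster, read 1879 against 2272 and 2489 (log2 difference 0.33 ± 0.24, SE), and its second probe set was split (224.0 against 214.0 and 351.8). FBXL5, which targets iron regulatory proteins for degradation when iron is plentiful, read 3914 against 4847 and 5758 (log2 difference 0.43 ± 0.23, SE; limma adjusted p = 0.349). The second FBXL5 probe set gave 0.43 as well.

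Mitochondrial iron import was uneven between the siRNA arrays, and 0 of 15 kept probe sets in this group passed limma's threshold (all probe sets: 2.09%). SLC25A37 (mitoferrin 1) read 616.2 against 1340 and 813.9 in its probe set with the highest mean (log2 difference 0.72 ± 0.35, SE; limma adjusted p = 0.310). SiRNA array 1 carried most of that difference. Of its 8 kept probe sets 5 were higher on both arrays, 1 lower on both (339.5 against 250.9 and 278.3) and 2 split, so SLC25A37 had no common direction. SLC25A28 (mitoferrin 2) read 440.7 against 772.6 and 474.3, again with siRNA array 1 apart, but its second kept probe set read 319.9 against 455.7 and 507.1, higher on both.

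ABCB10, a mitochondrial inner membrane transporter that stabilises mitoferrin 1, read 1201 against 1924 and 2073 (log2 difference 0.71 ± 0.25, SE; limma adjusted p = 0.176), with both siRNA arrays close together. ISCU, the scaffold on which iron-sulphur clusters are built, read 12512 against 17462 and 12495. SiRNA array 2 equalled the scrambled array to within 0.002 on the log2 scale (difference -0.0019), and the excess on siRNA array 1 was not seen there. NFS1, the cysteine desulphurase that supplies the sulphur, read 2907 against 3140 and 3275 (log2 difference 0.14, 95% interval -0.40 to 0.68), and its second probe set was split (619.5 against 572.6 and 712.0). GLRX5, a glutaredoxin that passes clusters on, read 2843 against 3514 and 4578 (log2 difference 0.49 ± 0.25, SE; limma adjusted p = 0.336).

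Haem synthesis had 5 of 7 genes higher on both siRNA arrays (all genes: 46.7%), with 0 of 13 kept probe sets past limma's threshold (all probe sets: 2.09%). ALAS1, the rate-limiting enzyme outside red cells, read 2934 against 4184 and 4224 (log2 difference 0.51 ± 0.22, SE; limma adjusted p = 0.255). UROD, uroporphyrinogen decarboxylase, read 7102 against 10286 and 12415 (log2 difference 0.67 ± 0.21, SE; limma adjusted p = 0.144). Its second kept probe set read 2877 against 4408 and 4536 (log2 difference 0.63), close to the first. FECH, ferrochelatase, which inserts iron into protoporphyrin and itself carries an iron-sulphur cluster, read 880.6 against 1596 and 2011 (log2 difference 0.99 ± 0.28, SE; limma adjusted p = 0.110). Another FECH probe set read 248.0 against 526.3 and 600.1 (log2 difference 1.04), whereas a further one read 296.7 against 288.4 and 442.9 and was split.

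The enzymes between ALAS1 and FECH were mixed. ALAD read 1269 against 1394 and 1780 (log2 difference 0.30 ± 0.28, SE), and its second probe set lay at -0.18. UROS read 2499 against 1760 and 2615, so that the siRNA arrays fell on either side of the scrambled array, and a dimmer UROS probe set lay at 0.37. CPOX read 3725 against 4253 and 4532 (log2 difference 0.23, 95% interval -0.28 to 0.75). PPOX read 894.5 against 849.7 and 909.8 (log2 difference -0.024, 95% interval -0.68 to 0.63). The group's median over 7 genes was 0.30.

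Haem breakdown and export had 0 of 10 kept probe sets past limma's threshold (all probe sets: 2.09%). HMOX1, the inducible haem oxygenase that frees iron from haem, read 978.4 against 2579 and 1496 (log2 difference 0.97 ± 0.35, SE; limma adjusted p = 0.183). Both siRNA arrays were above the scrambled array, siRNA array 1 by 1.36 and siRNA array 2 by 0.59 on the log2 scale. The constitutive HMOX2 read 2784 against 3030 and 2829 (log2 difference 0.072, 95% interval -0.47 to 0.62, and -0.092 with arrays centred), and its second probe set was split (420.9 against 767.7 and 376.3). BLVRA, biliverdin reductase A, was higher on both siRNA arrays in all 4 kept probe sets, and that with the highest mean read 10952 against 12340 and 14414 (log2 difference 0.28 ± 0.20, SE; limma adjusted p = 0.482). BLVRB, biliverdin reductase B, read 6059 against 6594 and 5549 and was split. FLVCR1, a haem exporter, read 1471 against 1378 and 1372, and its other probe set read 685.2 against 377.2 and 494.2 (log2 difference -0.61 ± 0.33, SE; limma adjusted p = 0.359).

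**Figure D3:**
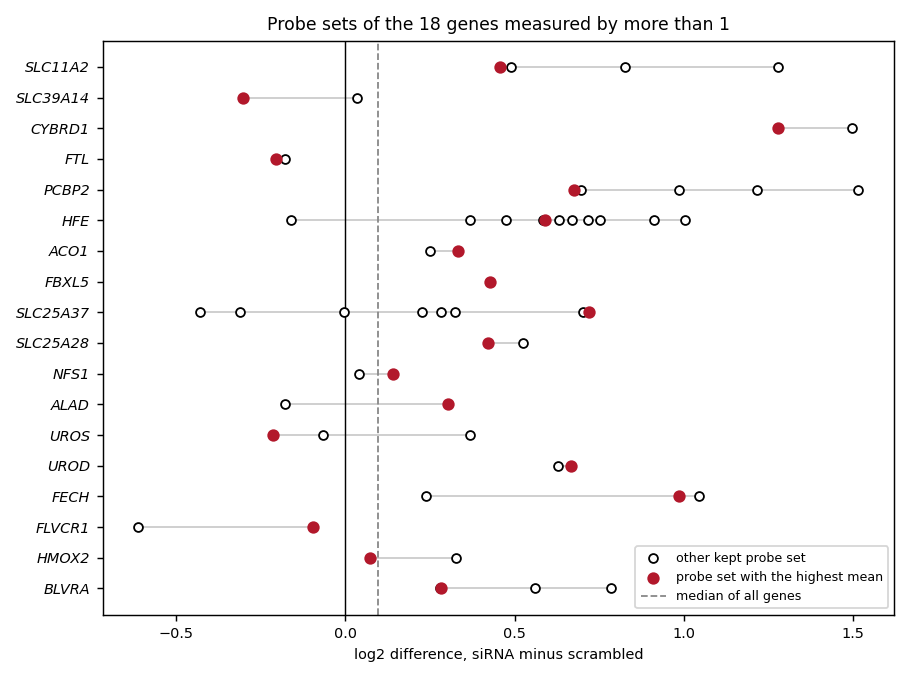
Log2 difference, siRNA minus scrambled, of every kept probe set of the 18 member genes with more than 1, with the probe set of highest mean filled. All kept probe sets of SLC11A2, CYBRD1, PCBP2, FBXL5, SLC25A28, UROD and BLVRA were higher on both siRNA arrays, while those of SLC25A37 and UROS spread over both sides of 0.

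Of the 18 members with several kept probe sets, 7 had all of them higher on both siRNA arrays. The same share over all genes was not computed, so the count is not a result about the members. Probe sets of 1 gene share the RNA of the array and often the transcript, so the count describes only how uniformly a gene was read. The sign of the fitted difference depended on the probe set in SLC39A14, HFE, SLC25A37, ALAD and UROS.

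A wider list of iron, haem and iron-sulphur genes, 51 names outside the members, was read in the same fit. The annotation named 43 of them alone in a probe set, and 37 had a kept probe set. Of their 60 kept probe sets limma called 2 higher and 1 lower, beside the 1.19% and 0.905% of all probe sets. The list's median log2 difference was 0.084, against 0.097 over all genes. On both siRNA arrays 19 of the 37 genes were higher and 11 lower, near the shares of all genes (46.7% and 32.5%). The members' median was 0.38, and the difference between the lists was not tested.

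Both probe sets called higher belonged to SLC39A8 (ZIP8), a zinc, manganese and iron importer of the same family as SLC39A14. It rose from 491.4 to 2163 and 2428 (log2 difference 2.12 ± 0.26, SE; limma adjusted p = 0.0213) and, in a second probe set, from 214.9 to 766.7 and 899.5 (1.74 ± 0.32, SE; limma adjusted p = 0.0455). ISCA1, an assembly factor for mitochondrial clusters of the larger kind, fell from 7607 to 3427 and 2745 (log2 difference -1.30 ± 0.24, SE; limma adjusted p = 0.0478). The other ISCA1 probe sets read 4843 against 2850 and 2490 (limma adjusted p = 0.108) and 3133 against 2045 and 2163 (limma adjusted p = 0.242), all below the scrambled array. Without the filter on dim signals neither gene was called (limma adjusted p = 0.111 for SLC39A8 and 0.149 for ISCA1), nor without the trend (0.125 and 0.173), nor with the filter at the 75th percentile (0.0558 and 0.0702). ISCA1 was also not called with quantile normalization (0.0689) or robust moderation (0.0504).

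Of the others in the wider list, the 5 with the smallest p-values in the probe set with the highest mean were CIAO1, FDX1, FLVCR2, BACH1 and EPAS1. CIAO1, a component of cytosolic cluster targeting, read 2340 against 4504 and 4649 (limma adjusted p = 0.0774), but a second CIAO1 probe set read 1485 against 869.0 and 969.1, and the gene has no common direction. The mitochondrial ferredoxin FDX1 read 2435 against 4342 and 4892 (limma adjusted p = 0.0893). FLVCR2, a relative of FLVCR1, read 249.8 against 541.7 and 691.7 (limma adjusted p = 0.122) and, in a second probe set, 135.8 against 607.7 and 383.4 (limma adjusted p = 0.0995). BACH1, the haem-binding repressor of HMOX1, read 7325 against 4801 and 3814 (log2 difference -0.77 ± 0.24, SE; limma adjusted p = 0.134), and its dimmer second probe set was split (175.0 against 250.8 and 159.7). EPAS1, a hypoxia-inducible factor subunit whose transcript carries a 5' iron-responsive element, read 5301 against 3291 and 3632 (limma adjusted p = 0.191).

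**Figure D4:**
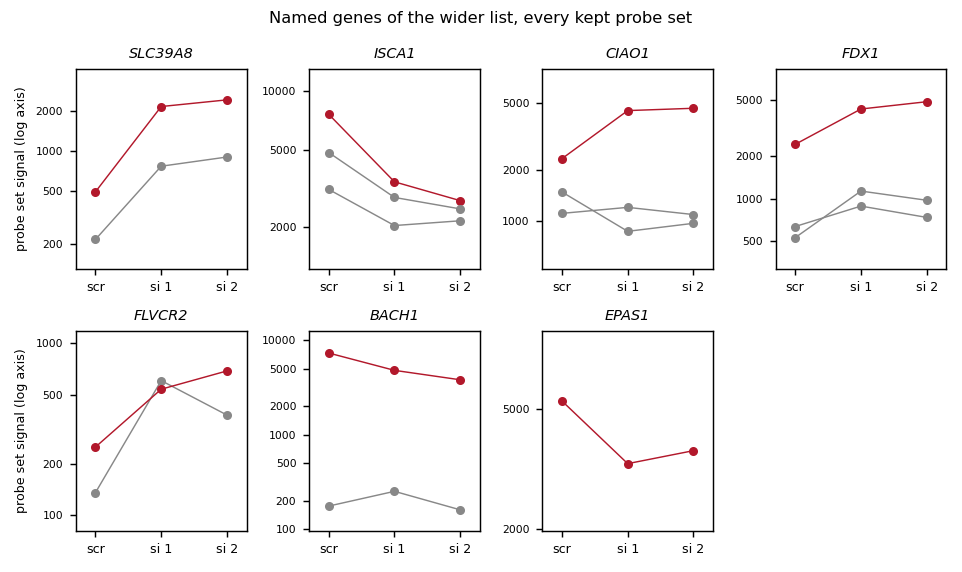
Signals of the 7 named genes of the wider list on the scrambled array (scr) and siRNA arrays 1 and 2 (si 1, si 2), log axes; each line is a kept probe set, red for that with the highest mean. Both SLC39A8 lines go up and all 3 ISCA1 lines go down, while the CIAO1 lines cross.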

How the data were processed

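RNA of 3 SK-Mel-28 samples, 1 scrambled and 2 MTf siRNA as labelled, was measured on single-colour Affymetrix U133 Plus 2.0 arrays. The authors deposited linear intensities, 1 for each probe set of each array, made with GCOS 1.3 per the submitters' processing notes. The mean after trimming 2% at each end was 1000.14, 1000.12 and 1000.13, so arrays had been scaled before deposit. The summary settings were not given in the sources used here. Detection calls were not used.

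Of 54675 probe sets, 62 controls were left out. The platform annotation names 1 gene for 41091 probe sets, several for 1801 and none for 11721; only the first kind was named, with symbols updated through Entrez identifiers. Values were taken as log2(intensity + 47.4), the pseudocount being the 25th percentile of all intensities, and probe sets with a mean above the median (7.74) were kept. The comparison used limma 3.58.1 in R 4.3.3 (lmFit, eBayes with trend) with a two-sided test at an adjusted p of 0.05. Each probe set has 1 residual degree of freedom, to which moderation added 6.36. The fit was run on simulated arrays of equal spread with implanted changes larger than any member's. That run does not test the spread of the scrambled array or changes of the members' size. Intervals at 95% use the same model. The small number of arrays limits the precision.

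A gene's representative is its probe set with the highest mean. All members were described, further probe sets chiefly where they differ in sign, and in the wider list those called plus the 5 smallest p-values. Members and lists were chosen with earlier results of these data known. Promoters are from RefSeq (GRCh38.p14). Alternatives covered pseudocount, filter, scaling, moderation, probe set suffix and leaving out an array. There were 0 value columns of other samples.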

Additional observations from a re-analysis of the deposited data

How the results depend on the processing

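The members' counts of calls, 0 higher and 0 lower by limma, were 0 under every alternative of pseudocount, filter, scaling, moderation and suffix apart from the one named next, and their smallest adjusted p for a member lay between 0.0506 (quantile normalization) and 0.167 (without the trend). Centring the arrays on the medians of all probe sets, an alternative chosen after seeing the data, gave 2 calls higher, for a PCBP2 probe set (adjusted p = 0.0311) and a CYBRD1 probe set (adjusted p = 0.0333), 2 of 72 where 2.18% of all probe sets were called higher. Over all probe sets the calls depend on the model: limma called 571 in either direction, 1 without the filter, 1 without the trend, 9 with the 75th percentile filter, 357 with quantile normalization, 309 without _s_at and _x_at probe sets and 1528 when centred over all probe sets. The 6 member probe sets at least 2-fold higher on both arrays (of 72; all probe sets 3.93%) became 3 of 38 with the 75th percentile filter (2.64%), 3 of 72 with centred arrays (2.57%), 2 of 72 with quantile normalization (2.84%) and 3 of 34 without _s_at and _x_at probe sets (4.23%). Taking 1 siRNA array alone, 10 were 2-fold higher on either array, and the count lower was 0 to 1. The share of all probe sets 2-fold higher on 1 array alone was not computed, so these counts have no background beside them. The members' median of 0.38 was 0.30 without the filter and with the 75th percentile filter, 0.21 with centred arrays, 0.21 when centred over all probe sets, and 0.30 to 0.40 with 1 siRNA array left out, staying above the median of all genes each time. Centring moves every difference by the same amount, -0.16 (or -0.17 over all probe sets), which turned the signs of HMOX2 (-0.092 and -0.098) and NFS1 (-0.024 and -0.030). BLVRB turned to 0.067 with quantile normalization; the cause was not tested. UROS turned to 0.37 without _s_at and _x_at probe sets because another probe set then represents it. Among members still measured, no other representative value changed sign with both siRNA arrays kept; the 75th percentile filter left 27 genes and the suffix filter 23. No paired analysis was possible because there was only 1 scrambled array and the labels give no pairing. Leaving out an array leaves no residual degree of freedom, so those values carry no test. Probe sets near the bacterial control signals, up to 97.2, limit what can be said of STEAP2, LCN2, SLC40A1, CP and HEPH.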
